A study of Mus musculus with 24 samples.

Results

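Fatty acid oxidation and ketogenesis were followed in mouse liver through 37 genes, chosen by their symbols: Fabp1, Fabp2, Acsl1, Cpt1a, Slc25a20, Cpt2, Crat, Crot, Acadvl, Acadl, Acadm, Acads, Etfa, Etfb, Etfdh, Hadha, Hadhb, Hadh, Echs1, Acaa2, Eci1, Eci2, Decr1, Decr2, Ehhadh, Hsd17b4, Acaa1a, Acaa1b, Pex11a, Acat1, Bdh1, Acot1, Acot2, Acot3, Acot4, Pdk4 and Vnn1. All 37 were among the 23411 gene symbols of the read count table, and all 37 passed the filter on low counts in both models fitted below. Livers came from WT and α7HMZ male mice, aged 16 to 20 weeks, on a mixed 129/Sv plus C57BL/6 background. The α7HMZ mouse is homozygous for an exon swap in the Hnf4a gene, so that the whole animal, not only the liver, makes the isoforms of the nuclear receptor HNF4α that normally come from its P2 promoter and lacks those of the P1 promoter. Each genotype was sampled while fed ad libitum on LabDiet chow at 10:30, 13:30 and 20:30, and after a 12 h fast at 10:30, with 3 mice in each of the 8 groups and 24 libraries in all. The 3 mice of a group were taken one after another, so a group shares its hour. Lights were on from 7:00 to 19:00, so 10:30 and 13:30 fall in the light phase and 20:30 in the early dark phase, when mice feed most.

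Liver takes up fatty acids, ties them to coenzyme A and either esterifies them or burns them. Long chains enter mitochondria as carnitine esters and are shortened there by a repeating cycle of dehydrogenation, hydration, dehydrogenation and thiolysis, while very long, branched or dicarboxylic chains start in peroxisomes. In a fast, hepatocytes turn much of the resulting acetyl-CoA into ketone bodies for other organs, and the nuclear receptor PPARα, which binds DNA with RXR at a repeat of the AGGTCA half-site with 1 base between (a DR1 element, which HNF4α also binds), induces many of these genes.

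The libraries held 8545959 to 28445590 counts. Levels are given as CPM (counts scaled to a common library total) after TMM scaling, and differences as log2 fold changes (log2FC ± SE) from edgeR's quasi-likelihood test, with p-values adjusted over all genes tested (Benjamini-Hochberg). A gene is said to rise, fall or be called where the adjusted p was below 0.05, and n is 3 livers per group unless libraries are said to be left out. The 37 genes took 1.11% to 1.48% of counts in fed WT libraries, 1.81% to 2.02% in fasted WT libraries and 2.82% to 4.01% in fasted α7HMZ libraries. In fed α7HMZ libraries the share was 0.589% to 1.66%, with the lowest value in 1 library at 10:30 (replicate 1) in which the ribosomal gene Rn45s took 50.8% of counts. The Kupffer cell markers Clec4f, Vsig4, Cd5l, Timd4 and Marco, summed, lay between 60.2 and 259 CPM in all libraries but fasted α7HMZ replicate 3, where they reached 582 CPM. The part of Kupffer cells in the differences below was not tested, except where a value without that library is given. Hepatocyte markers were high in every library (Alb, 56900 to 124000 CPM). Hnf4a itself was at 575 to 1100 CPM in fed WT livers and 806 to 1280 CPM in fed α7HMZ livers. Its reads were counted over the whole gene, so this level does not check the exon swap. In whole liver, fewer cells of a type and less RNA per cell cannot be told apart. Fed livers at 10:30 and fasted WT livers ran on flow cell 375 and all other groups on flow cell 377. Genotypes were therefore compared within a flow cell in fed livers, as were WT fasting and the change from 13:30 to 20:30, but in any contrast with fasted α7HMZ livers the flow cell and the group cannot be told apart.

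Windows from 250 bases before to 50 bases after the transcription start, from RefSeq on GRCm38, were found for 31 of the 37 genes. They were searched on both strands for a DR1 element (AGGTCANAGGTCA, at most 2 mismatches) and for CAAAGTCCA, a core that HNF4 proteins bind. A DR1 match lay in the windows of Fabp1, Slc25a20, Etfa, Echs1 and Acot4, against 3.86% of all 32851 windows, and the HNF4 core was in none of them, against 0.475%. The windows of Fabp1, where the match has 1 mismatch and starts 67 bases before the start, and of the neighbouring thioesterase genes Acot1 to Acot4 are shown because Fabp1 has the match with the fewest mismatches and the thioesterases had the largest median fasting change of the roles. Capitals mark the DR1 match. The sequences are on the plus strand of GRCm38, at chr6:71199792-71199844 for Fabp1 and, on chromosome 12, the 60 bases before each start at chr12:84009442-84009501 for Acot1, chr12:83987801-83987860 for Acot2, chr12:84052084-84052143 for Acot3 and chr12:84038319-84038378 for Acot4.
Fabp1: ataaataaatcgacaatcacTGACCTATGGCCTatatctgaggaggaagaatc
Acot1: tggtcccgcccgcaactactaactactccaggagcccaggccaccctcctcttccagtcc
Acot2: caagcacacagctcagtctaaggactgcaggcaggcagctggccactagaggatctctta
Acot3: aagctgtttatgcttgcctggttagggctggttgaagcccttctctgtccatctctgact
Acot4: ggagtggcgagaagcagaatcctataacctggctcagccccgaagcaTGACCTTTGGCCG
A match is a description of letters only, and no match in these windows says nothing about sites elsewhere.

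Fasting raised most of the 37 genes in both genotypes, and the genotype moved fewer of them, in both directions. In WT livers the 12 h fast raised 28 genes and lowered 1, where 12% of all 13103 genes tested rose and 10.6% fell. In α7HMZ livers it raised 26 and lowered 1, where 6.68% of all genes rose and 5.9% fell. The median log2FC over the 37 genes was 0.927 in WT and 0.735 in α7HMZ livers, and that over all genes was 0.004 and -0.00892. Fed WT livers had 20 genes higher at 20:30 than at 13:30 and 0 lower, against 11.6% and 9.97% of 13334 genes. At an unadjusted p below 0.05, 1 of the 37 was lower in edgeR, and DESeq2 called 0 lower. Fed α7HMZ livers had 3 higher and 1 lower over the same interval, against 3.16% and 2.05%. The plot of group means shows these patterns for all 37 genes.

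**Figure D1:**
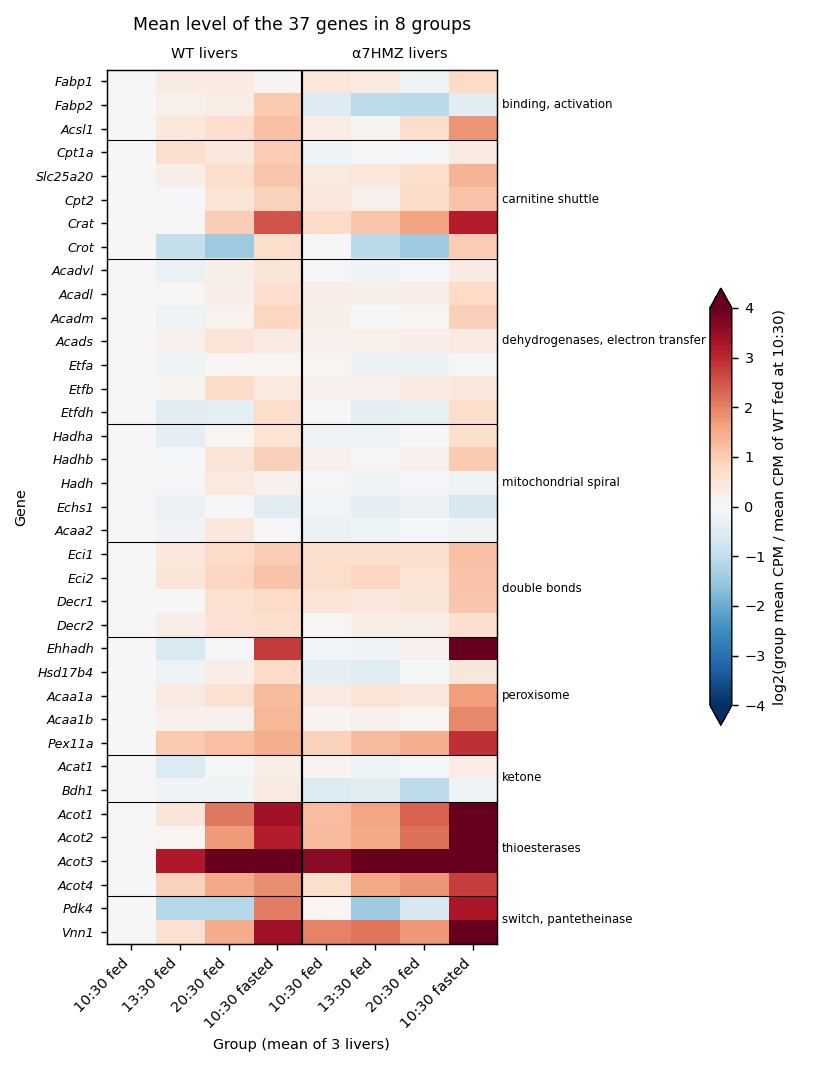
Mean level of each of the 37 genes (rows, grouped by role) in the 8 groups (columns), as the log2 ratio of the group's mean CPM to that of WT livers fed at 10:30, with n = 3 livers per group. Colours saturate at a log2 ratio of 4, and the thioesterases, Ehhadh, Crat, Vnn1 and Pdk4 show strong colours in the fasted columns. Acot3 also shows strong colours in fed columns, and those of α7HMZ livers at 13:30 and 20:30 saturate.

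Between genotypes, averaged over the 3 fed times, 13 genes were higher and 6 lower in α7HMZ than in WT livers, where 13.3% of all genes were higher and 13.2% lower. The median over the 37 genes, 0.0355, was close to that over all genes, 0.0267. This split depended on the scaling. With offsets for GC content and full quantile scaling, modelled on the study's own normalisation, 24 genes were higher and 2 lower, the median over the 37 was 0.321, and that over all genes stayed at 0.0235. Of the 13 higher with TMM factors all 13 were also called higher with these offsets, and of the 6 lower 2 were, Fabp2 and Bdh1. At 10:30 alone 12 genes were higher and 2 lower (all genes, 8.36% and 8.98%; offsets, 18 and 1). At 13:30, 5 were higher and 2 lower (all genes, 6.19% and 6.61%; offsets, 18 and 1). At 20:30, 2 were higher and 8 lower (all genes, 8.29% and 10.8%; offsets, 3 and 2). In fasted livers 11 were higher and 3 lower in α7HMZ (all genes, 6.9% and 8.65%; offsets, 21 and 1). In all 5 of these comparisons the offsets moved the split towards higher in α7HMZ. The percentages of all genes are those with TMM factors. With the offsets 2085 of all 13334 genes were higher and 1593 lower in the fed average. These counts were 1351 and 1140 at 10:30, 928 and 767 at 13:30, and 1034 and 1081 at 20:30. In fasted livers they were 1010 and 1076 of 13103 genes. In the fed average the calls for Fabp2, Cpt2, Crat, Eci1, Eci2, Decr1, Pex11a, Bdh1, Acot1, Acot2, Acot3 and Vnn1 held under all 28 alternatives run, and in fasted livers those for Fabp2, Ehhadh, Pex11a, Acot1, Acot2, Acot3 and Vnn1 under all 17. These counts leave aside a fold threshold.

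**Figure D2:**
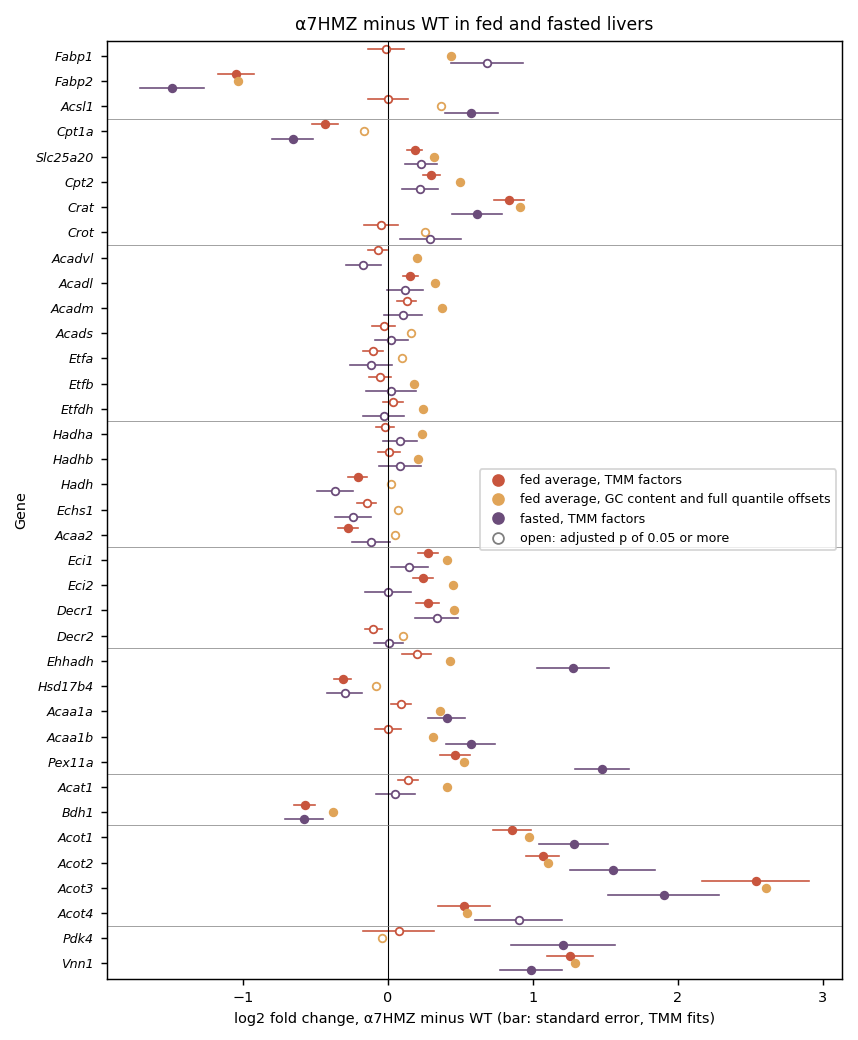
Log2 fold change of α7HMZ minus WT for each of the 37 genes (rows), averaged over the 3 fed times with TMM factors (red) or with GC content and full quantile offsets (yellow), and in fasted livers with TMM factors (purple). Bars are standard errors (TMM fits), filled points have an adjusted p below 0.05, and the yellow points lie to the right of the red ones for nearly all mitochondrial genes while Acot1 to Acot4, Vnn1, Crat and Fabp2 move little.

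Among the proteins that bind and activate fatty acids, Fabp2 was lower in α7HMZ livers, and Acsl1 rose with fasting in both genotypes. Fabp2, the fatty acid binding protein best known from the intestine, was at 42.3, 46.1 and 33.8 CPM in WT livers fed at 10:30. The 13:30 livers held 50.6, 49.1 and 40.3 CPM and the 20:30 livers 60.6, 45.9 and 44.2 CPM. In α7HMZ livers it was at 21.0, 23.2 and 41.5 CPM, then 20.1, 18.9 and 19.9 CPM, then 15.2, 23.3 and 19.1 CPM. The genotypes overlapped only at 10:30, through 1 α7HMZ liver. The fed average difference was -1.05 ± 0.12 (adjusted p = 2.69e-06). The fast took Fabp2 to 71.8, 97.0 and 82.3 CPM in WT livers (log2FC 1.04 ± 0.22, adjusted p = 0.00445) and left it at 28.7, 34.0 and 27.0 CPM in α7HMZ livers (0.06 ± 0.22, adjusted p = 0.891). The difference between these fasting changes, -0.98 ± 0.31, did not pass the test (adjusted p = 0.209). With fed α7HMZ livers at 13:30, on the same flow cell as the fasted ones, the α7HMZ change was 0.62 ± 0.20 (adjusted p = 0.0435). Against 13:30 in WT livers, on another flow cell, the WT change was 0.85 ± 0.20 (adjusted p = 0.00238). In fasted livers Fabp2 was lower in α7HMZ by -1.49 ± 0.22 (adjusted p = 6e-04). Markers of small intestine summed to at most 2.49 CPM in any library, and that library, fasted WT replicate 2, also held the most Fabp2. In fasted replicates 1 to 3 they summed to 1.13, 2.49 and 0.293 CPM in WT and 0.21, 0.0761 and 0.399 CPM in α7HMZ livers. The part of intestinal RNA in the Fabp2 differences was not tested.

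Acsl1, which makes acyl-CoA from long-chain fatty acids, was at 902, 876 and 887 CPM in fed and 2180, 2160 and 1660 CPM in fasted WT livers, a rise of 1.18 ± 0.18 (adjusted p = 0.000612). In α7HMZ livers it went from 1060, 1290 and 931 CPM to 2810, 3810 and 2390 CPM (1.46 ± 0.18, adjusted p = 0.000241). No fasted library overlapped a fed one. The fasted genotypes differed by 0.58 ± 0.18 (adjusted p = 0.0459) and did not overlap. Fabp1, the abundant liver fatty acid binding protein, ranked 16 of all genes in CPM per kilobase of transcript in WT livers at 10:30 and passed no test with TMM factors. It was at 2440, 3100 and 3320 CPM in fasted WT and 4080, 6780 and 3480 CPM in fasted α7HMZ livers, which did not overlap (0.69 ± 0.25, adjusted p = 0.0802). With the GC content and full quantile offsets that difference was 1.10 (adjusted p = 0.00325) and the fed average one 0.43 (adjusted p = 0.00439). The fasted difference was called in 5 of 17 alternatives, among them DESeq2 (0.69, adjusted p = 0.0259) and the fit without fasted α7HMZ replicate 3 (0.85, adjusted p = 0.0491), and the fed average one in 1 of 28, these offsets.

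All 5 genes of the carnitine shuttle rose with fasting in both genotypes. The largest rise was that of Crat, carnitine acetyltransferase, which moves short acyl groups between carnitine and coenzyme A. It was at 31.8, 30.1 and 27.5 CPM in fed and 172, 163 and 179 CPM in fasted WT livers (2.52 ± 0.19, adjusted p = 3.19e-06), and at 63.9, 41.8 and 45.9 CPM in fed and 245, 335 and 211 CPM in fasted α7HMZ livers (2.39 ± 0.18, adjusted p = 6.8e-06). Crat was also higher in α7HMZ livers at every fed time. At 13:30 it was at 22.9, 33.2 and 33.0 CPM in WT and 70.6, 58.8 and 62.0 CPM in α7HMZ livers, while the 20:30 livers held 71.6, 47.2 and 56.9 CPM in WT and 103, 93.6 and 76.8 CPM in α7HMZ. The groups did not overlap at any of the 3 fed times, and the fed average difference was 0.83 ± 0.10 (adjusted p = 5.73e-06). The fasted difference, 0.62 ± 0.17, had an adjusted p of 0.0293.

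Cpt1a, the outer membrane enzyme that commits long chains to mitochondria and the main control point of the pathway, went the other way between genotypes. WT livers at 13:30 were at 581, 567 and 552 CPM and α7HMZ livers at 388, 318 and 386 CPM (-0.64 ± 0.15, adjusted p = 0.00948). At 10:30 the genotypes overlapped, at 352, 365 and 371 CPM and 355, 321 and 281 CPM (adjusted p = 0.473). The fast raised Cpt1a to 798, 802 and 587 CPM in WT livers (1.01 ± 0.14, adjusted p = 0.000315) and to 503, 481 and 411 CPM in α7HMZ livers (0.55 ± 0.14, adjusted p = 0.0223). Fasted α7HMZ livers were all below fasted WT livers (-0.66 ± 0.14, adjusted p = 0.0074), and the fed average difference was -0.43 ± 0.09 (adjusted p = 0.00116). With the GC content and full quantile offsets both genotype differences kept their sign but not the call (-0.16, adjusted p = 0.251, fed average; -0.36, adjusted p = 0.103, fasted). Against fed livers at 13:30 the fasting change of Cpt1a was 0.37 ± 0.16 in α7HMZ livers (adjusted p = 0.14). In WT livers, with the 13:30 livers on another flow cell, it was 0.38 ± 0.16 (adjusted p = 0.0743).

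Slc25a20, the carnitine acylcarnitine carrier of the inner membrane, went from 86.9, 83.3 and 81.6 CPM to 172, 176 and 197 CPM in WT livers (1.12 ± 0.11, adjusted p = 2.84e-05) and from 114, 95.2 and 112 CPM to 215, 234 and 192 CPM in α7HMZ livers (1.00 ± 0.11, adjusted p = 1e-04). Cpt2, which returns the chain to coenzyme A inside, rose by 0.93 ± 0.12 in WT and 0.73 ± 0.12 in α7HMZ livers. Both were slightly higher in fed α7HMZ livers, Slc25a20 by 0.19 ± 0.05 and Cpt2 by 0.30 ± 0.06. Crot, which makes carnitine esters of medium chains leaving the peroxisome, rose by 0.70 ± 0.21 in WT and 1.03 ± 0.21 in α7HMZ livers. Its fasted genotype difference, 0.29, was not called with TMM factors and was with the offsets (0.64, adjusted p = 0.0352). In fed WT livers its mean was 938 CPM at 10:30, 485 CPM at 13:30 and 344 CPM at 20:30, but the step from 13:30 to 20:30 did not pass the test (adjusted p = 0.0961), and 10:30 and 13:30 livers were on different flow cells.

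The acyl-CoA dehydrogenases open each turn of the mitochondrial cycle, and the flavoproteins Etfa, Etfb and Etfdh carry their electrons to the respiratory chain. Of these 7 genes, 4 rose with fasting in WT and the same 4 in α7HMZ livers: Acadvl, Acadl and Acadm, for very long, long and medium chains, and Etfdh. Acadm was at 340, 342 and 355 CPM in fed and 668, 636 and 570 CPM in fasted WT livers (0.86 ± 0.13, adjusted p = 0.000579), and at 364, 366 and 483 CPM in fed and 668, 743 and 618 CPM in fasted α7HMZ livers (0.75 ± 0.13, adjusted p = 0.00236). The groups did not overlap in either genotype. Acads, for short chains, changed by 0.33 ± 0.11 and 0.18 ± 0.11, with adjusted p-values of 0.0531 and 0.351, and Etfa by 0.07 ± 0.14 and -0.12 ± 0.14. In the fed average Acadl alone of the 7 was called between genotypes, at 0.16 ± 0.05 (adjusted p = 0.0319), and in 13 of 28 alternatives. With the GC content and full quantile offsets Acadl (0.32), Acadm (0.37, adjusted p = 9.38e-05), Etfdh (0.24, adjusted p = 0.0121), Acadvl (0.20, adjusted p = 0.00971) and Etfb (0.18, adjusted p = 0.0174) were all called higher in α7HMZ livers. Acadl was at 194, 179 and 180 CPM in WT and 219, 204 and 248 CPM in α7HMZ livers at 10:30. In fasted livers the genotype differences of the 7 ran from -0.168 to 0.119 and none passed the test, while with the offsets Acadl (0.34, adjusted p = 0.0353) and Acadm (0.41, adjusted p = 0.0259) did. The smallest p was that of Acadvl, at 528, 585 and 589 CPM in WT and 502, 557 and 462 CPM in α7HMZ livers (adjusted p = 0.377). At 20:30 Etfb was lower in α7HMZ livers, at 316, 346 and 293 CPM against 371, 408 and 478 CPM (-0.40 ± 0.13, adjusted p = 0.0408), and with the offsets this difference was 0.02. Of 75-base windows of the Etfb transcript 66.3% are shared with Gm45233, so reads from those windows cannot be assigned to 1 gene.

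The later steps of the mitochondrial spiral answered the fast unevenly. The trifunctional protein subunits Hadha and Hadhb, which carry the later steps for long chains and whose genes start 273 bases apart on opposite strands, rose together. Hadhb went from 251, 241 and 240 CPM to 495, 512 and 409 CPM in WT livers (0.96 ± 0.15, adjusted p = 0.000523) and from 247, 261 and 326 CPM to 479, 598 and 434 CPM in α7HMZ livers (0.86 ± 0.15, adjusted p = 0.00166). Hadha rose by 0.56 ± 0.12 and 0.79 ± 0.12. Hadhb shares 57.2% of its windows, mostly with Gm13910, and Echs1 exons overlap Paox on the other strand, from which unstranded reads cannot be told apart (likewise Acsl1 with Gm45244, Crat with Dolpp1, Acaa1a with Myd88 and Bdh1 with Gm15743). The single enzymes for shorter chains did not rise. Echs1, the enoyl-CoA hydratase, fell from 283, 301 and 310 CPM to 208, 232 and 230 CPM in WT livers (-0.41 ± 0.12, adjusted p = 0.0289) and from 236, 267 and 329 CPM to 201, 183 and 186 CPM in α7HMZ livers (-0.54 ± 0.12, adjusted p = 0.0108). It was the single gene of the 37 that fell in each genotype, and the WT call was lost without any 1 of the 6 WT livers. The α7HMZ call was lost with only the groups compared. Against fed α7HMZ livers at 13:30, on the same flow cell, the Echs1 change was -0.28 ± 0.11 (adjusted p = 0.0963). Against 13:30 in WT livers, on another flow cell, it was -0.12 ± 0.11 (adjusted p = 0.405). Hadh, the short-chain hydroxyacyl-CoA dehydrogenase, and Acaa2, the mitochondrial thiolase, changed by 0.17 ± 0.12 and -0.04 ± 0.13 in WT livers and did not pass the test in either genotype.

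Fasted α7HMZ livers held 238, 251 and 245 CPM of Hadh against 312, 338 and 291 CPM in WT livers, without overlap (-0.36 ± 0.12, adjusted p = 0.0588). Hadh and Acaa2 were lower in α7HMZ livers in the fed average (-0.21 ± 0.07, adjusted p = 0.0304, and -0.28 ± 0.07, adjusted p = 0.00538). With GC content and full quantile offsets these differences were 0.02 and 0.05 (adjusted p = 0.832 and 0.583), so the sign turned with the scaling. At 20:30 Acaa2 was at 1090, 1190 and 1350 CPM in WT and 806, 1010 and 766 CPM in α7HMZ livers, without overlap (-0.49 ± 0.12, adjusted p = 0.00797), and with the offsets the difference was -0.08.

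Of the 4 genes for the double bonds of unsaturated chains, 3 were higher in α7HMZ livers at 10:30. Eci2, an enoyl-CoA isomerase found in mitochondria and peroxisomes, was at 174, 169 and 161 CPM in WT and 247, 255 and 310 CPM in α7HMZ livers at 10:30 (0.70 ± 0.12, adjusted p = 0.000369). At 13:30 the values were 237, 248 and 224 CPM against 311, 287 and 298 CPM (0.34 ± 0.12, adjusted p = 0.0617), and at 20:30 they were 350, 262 and 293 CPM against 222, 278 and 233 CPM (-0.31 ± 0.12, adjusted p = 0.0711). With the GC content and full quantile offsets the Eci2 difference was 0.83 at 10:30, 0.53 at 13:30 (adjusted p = 0.00121) and -0.03 at 20:30 (adjusted p = 0.886). All α7HMZ livers were above all WT livers at 10:30 and 13:30, and the genotypes overlapped at 20:30. The test that the genotype difference varies among the 3 times gave an adjusted p of 0.0131. Eci1, the mitochondrial isomerase, had the same order, with 80.0, 81.9 and 75.7 CPM against 109, 116 and 153 CPM at 10:30 (0.68 ± 0.12, adjusted p = 0.000837) and 147, 110 and 149 CPM against 124, 137 and 121 CPM at 20:30 (-0.09 ± 0.12), and an adjusted p of 0.0378 for the variation with time. With the offsets the Eci1 difference at 20:30 was 0.09 (adjusted p = 0.601). Decr1, the mitochondrial dienoyl-CoA reductase, was at 176, 178 and 173 CPM in WT and 226, 222 and 319 CPM in α7HMZ livers at 10:30 (0.55 ± 0.14, adjusted p = 0.0105). Decr2, its peroxisomal relative, was not called at 10:30 (0.09 ± 0.10, adjusted p = 0.61) and was lower in α7HMZ livers at 20:30 (-0.35 ± 0.10, adjusted p = 0.0229), a call lost with the offsets (-0.08, adjusted p = 0.62). All 4 rose with fasting in WT livers, by 0.66 to 1.14, and all but Eci2 in α7HMZ livers (Eci2, 0.46 ± 0.16, adjusted p = 0.0782). The WT and α7HMZ fasting changes of Eci1 and Eci2 differed by -0.52 ± 0.18 and -0.68 ± 0.23, with adjusted p-values of 0.253 and 0.227.

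The peroxisomal genes all rose with fasting in both genotypes, and 4 of the 5 were higher in fasted α7HMZ than in fasted WT livers. Ehhadh, the peroxisomal bifunctional enzyme that handles medium and dicarboxylic chains, had the widest range of the 5. It was at 316, 311 and 331 CPM in fed and 2950, 1900 and 1820 CPM in fasted WT livers, 6.99-fold higher (2.81 ± 0.26, adjusted p = 1.63e-05). In α7HMZ livers it went from 368, 257 and 264 CPM to 4540, 7660 and 4100 CPM, 18.3-fold higher (4.2 ± 0.28, adjusted p = 2.88e-06). Every fasted α7HMZ liver was above every fasted WT liver (1.28 ± 0.25, adjusted p = 0.00387), while the fed average difference, 0.20 ± 0.10, did not pass the test with TMM factors (adjusted p = 0.149) and did with the offsets (0.43, adjusted p = 0.00338). The fasting changes of the genotypes differed by 1.39 ± 0.35, with an adjusted p of 0.135 in edgeR and 0.00668 in DESeq2. Against fed α7HMZ livers at 13:30, on the same flow cell, the α7HMZ change was 4.22 ± 0.25 (adjusted p = 2.84e-10). Against 13:30 in WT livers, on another flow cell, the WT change was 3.41 ± 0.24 (adjusted p = 3.33e-09).

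Pex11a, which helps peroxisomes divide, showed the strongest genotype difference of the group in fasted livers, at 140, 244 and 147 CPM in α7HMZ against 74.5, 61.7 and 53.8 CPM in WT (1.48 ± 0.19, adjusted p = 0.000161). In fed livers at 10:30 it was at 44.3, 43.9 and 43.4 CPM against 23.9, 21.9 and 23.8 CPM (0.93 ± 0.18, adjusted p = 0.00175), and at 13:30 and 20:30 the genotypes overlapped. The fast changed Pex11a by 1.453 in WT and 2.015 in α7HMZ livers at 10:30. Against fed α7HMZ livers at 13:30, on the same flow cell, the α7HMZ change was 1.67 ± 0.21 (adjusted p = 5.53e-06). Against 13:30 in WT livers, on another flow cell, the WT change was 0.41 ± 0.20 and not called (adjusted p = 0.135). The peroxisomal thiolases Acaa1a and Acaa1b rose by 1.28 ± 0.13 and 1.35 ± 0.17 in WT livers and by 1.38 ± 0.13 and 1.82 ± 0.17 in α7HMZ livers. Fasted α7HMZ livers held 652, 828 and 620 CPM of Acaa1a against 503, 494 and 579 CPM (0.41 ± 0.13, adjusted p = 0.0461) and 2000, 2830 and 1910 CPM of Acaa1b against 1530, 1420 and 1550 CPM (0.57 ± 0.17, adjusted p = 0.0353). The thiolases share 27.3% and 37.8% of their 75-base windows, with each other and, for Acaa1b, Dlec1, so reads from those windows cannot be assigned to 1 gene. Hsd17b4, the multifunctional enzyme for branched and very long chains, rose by 0.75 ± 0.12 and 0.83 ± 0.12 with fasting. At 10:30 it was at 392, 395 and 360 CPM in fed WT and 287, 270 and 328 CPM in fed α7HMZ livers, and the fed average was lower in α7HMZ livers (-0.31 ± 0.06, adjusted p = 0.000404), by -0.08 and without a call (adjusted p = 0.287) with the offsets.

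**Figure D3:**
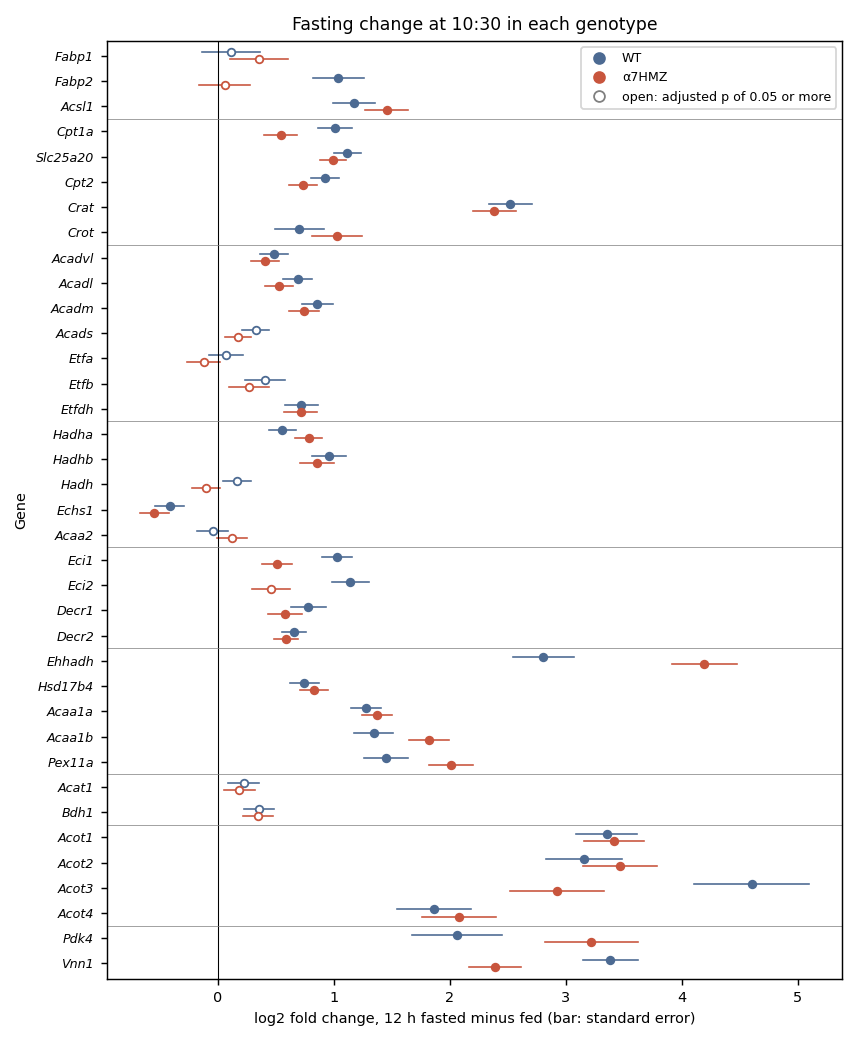
Log2 fold change of 12 h fasted minus fed livers at 10:30 for each of the 37 genes (rows, grouped by role) in WT (blue) and α7HMZ (red) livers, n = 3 per group. Bars are standard errors and open points have an adjusted p of 0.05 or more, and Acot1 to Acot4, Ehhadh, Crat, Pdk4 and Vnn1 lie farthest to the right in both genotypes.

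The ketone body genes among the 37, Acat1 and Bdh1, did not pass the test between fed and fasted livers at 10:30 in either genotype. Acat1, which condenses acetyl-CoA to acetoacetyl-CoA, changed by 0.23 ± 0.13 in WT and 0.19 ± 0.13 in α7HMZ livers, and Bdh1, which reduces acetoacetate to hydroxybutyrate, by 0.36 ± 0.13 (adjusted p = 0.066) and 0.35 ± 0.13 (adjusted p = 0.101). Against fed livers at 13:30, on the same flow cell, Acat1 was higher in fasted α7HMZ livers (0.48 ± 0.12, adjusted p = 0.00749) and Bdh1 changed by 0.23 ± 0.14 (adjusted p = 0.307). Against 13:30 in WT livers, on another flow cell, both were called higher after the fast (Acat1 by 0.77 ± 0.12 and Bdh1 by 0.49 ± 0.14). Between genotypes Acat1 was not called with TMM factors, and with the offsets it was called higher in α7HMZ livers in the fed average (0.41, adjusted p = 2.42e-05) and after the fast (0.36, adjusted p = 0.033). Bdh1 was called lower in α7HMZ livers in every state but 13:30. At 10:30 it was at 237, 238 and 204 CPM in WT and 144, 154 and 162 CPM in α7HMZ livers. At 13:30 the values were 201, 220 and 200 CPM against 164, 168 and 169 CPM (-0.31 ± 0.13, adjusted p = 0.133). At 20:30 they were 215, 167 and 215 CPM against 105, 136 and 89.7 CPM, and after the fast 266, 327 and 274 CPM against 168, 231 and 185 CPM. The genotypes did not overlap in any of the 4 states. The fed average difference was -0.57 ± 0.07 (adjusted p = 8.74e-06) and the fasted one -0.57 ± 0.13 (adjusted p = 0.00989), the latter -0.37 with an adjusted p of 0.0725 with the offsets. Bdh1 was also the 1 gene of the 37 that fell between 13:30 and 20:30 in α7HMZ livers (-0.60 ± 0.13, adjusted p = 0.00996).

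The acyl-CoA thioesterases of the Acot1 to Acot4 cluster, which free fatty acids from coenzyme A in the cytosol (Acot1), mitochondria (Acot2) and peroxisomes (Acot3, Acot4), had the largest median fasting change of the roles, 3.26 in WT and 3.17 in α7HMZ livers. The genes lie in 1 block on chromosome 12, with starts from 83987861 (Acot2) to 84052144 (Acot3). Acot1 was at 26.0, 25.3 and 22.3 CPM in fed and 251, 230 and 270 CPM in fasted WT livers, 10.2-fold higher (3.35 ± 0.26, adjusted p = 4.57e-06), and at 67.6, 40.5 and 63.8 CPM in fed and 551, 883 and 405 CPM in fasted α7HMZ livers, 10.7-fold higher (3.42 ± 0.26, adjusted p = 6.8e-06). The fold was nearly equal in the genotypes, and the levels were not, since every α7HMZ liver lay above every WT liver in each state at 10:30. The genotype difference was 1.23 ± 0.23 (adjusted p = 0.00102) in fed and 1.28 ± 0.24 (adjusted p = 0.00303) in fasted livers at that hour, and the fasting changes differed by 0.06 ± 0.34 (adjusted p = 0.944).

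Acot2 followed the same course at a lower level. WT livers held 9.48, 9.85 and 8.95 CPM fed at 10:30 and 88.3, 75.0 and 88.7 CPM fasted (3.16 ± 0.33, adjusted p = 3.21e-05), and α7HMZ livers 29.6, 16.7 and 21.0 CPM fed and 200, 402 and 142 CPM fasted (3.47 ± 0.32, adjusted p = 2.43e-05). Acot4 rose by 1.87 ± 0.32 and 2.08 ± 0.32 and differed between genotypes by 0.52 ± 0.18 in the fed average (adjusted p = 0.0362) and 0.90 ± 0.30 in fasted livers (adjusted p = 0.0588).

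Acot3 had the largest change of all 37. WT livers fed at 10:30 held 1.41, 1.91 and 1.22 CPM, those of 13:30 held 3.84, 9.25 and 28.7 CPM, and those of 20:30 held 46.4, 10.9 and 13.9 CPM, against 38.9, 34.9 and 37 CPM after the fast. In the same order α7HMZ livers held 33.6, 9.73 and 12.0 CPM, then 72.2, 87.9 and 51.8 CPM, then 79.6, 84.4 and 66.9 CPM, and 115, 211 and 89.9 CPM after the fast. Every α7HMZ liver was above every WT liver of the same state. The difference was 3.59 ± 0.75 at 10:30 (adjusted p = 0.0026), 2.37 ± 0.58 at 13:30 (adjusted p = 0.0108), 1.66 ± 0.57 at 20:30 (adjusted p = 0.0484) and 1.90 ± 0.38 after the fast (adjusted p = 0.00476). The WT fasting change was 4.60 ± 0.49 (adjusted p = 4.29e-05) and the α7HMZ one 2.93 ± 0.40 (adjusted p = 0.00044). Against fed livers at 13:30 the α7HMZ change was 0.98 ± 0.52 (adjusted p = 0.241). The WT change was then 1.44 ± 0.55 (adjusted p = 0.0499), with the 13:30 livers on another flow cell. Fed WT livers of the same hour spread widely at 13:30 and 20:30, and the 3 fed WT livers at 10:30 were the lowest of the 24. Acot1 to Acot4 share 26.4%, 21.2%, 18.7% and 10.7% of their 75-base windows with other genes, largely of the same family or overlapping transcripts, and reads from those windows cannot be assigned to 1 gene.

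**Figure D4:**
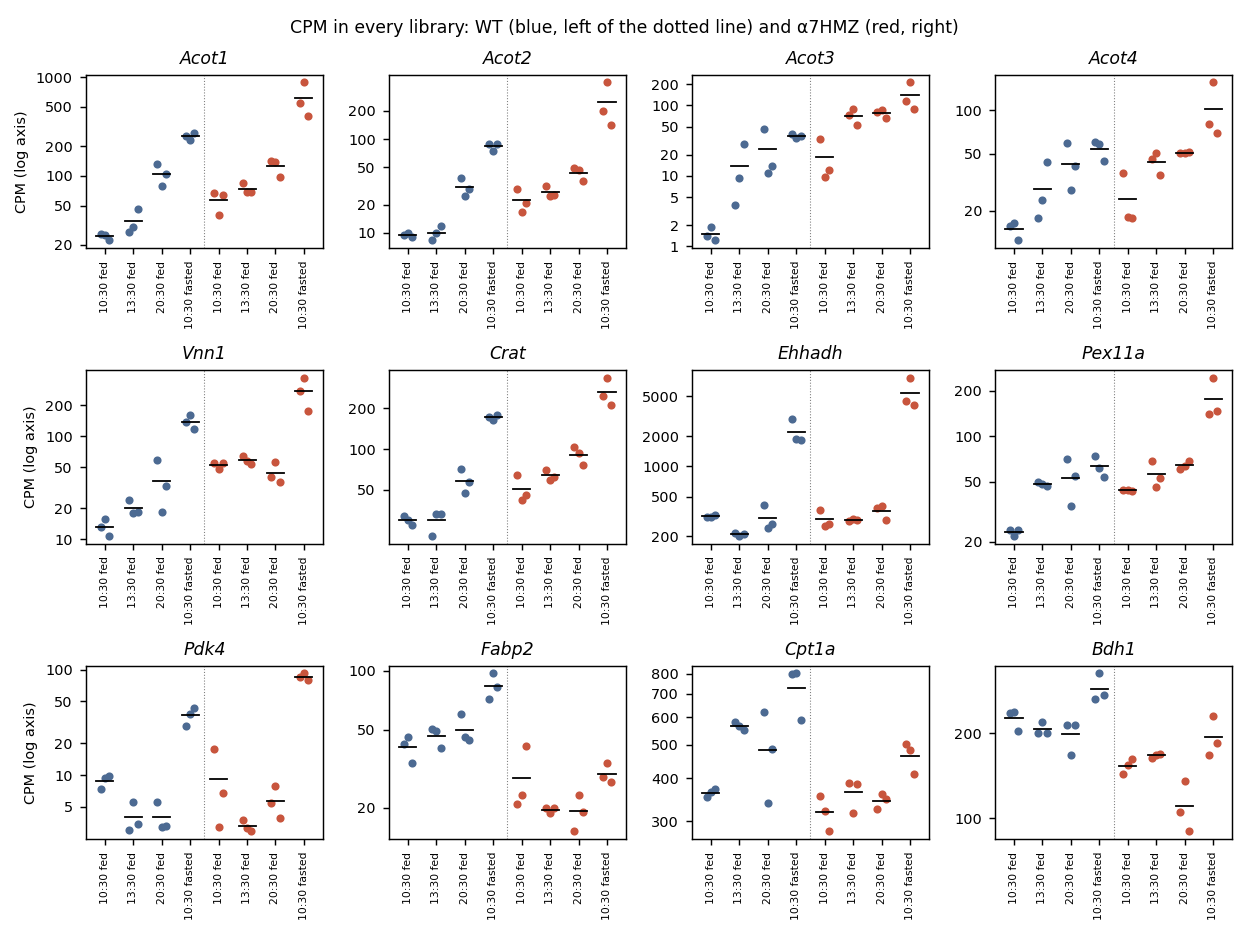
CPM of 12 genes in all 24 libraries on log axes, with WT livers (blue) left and α7HMZ livers (red) right of the dotted line in each panel. Points are livers, bars are means of 3, and Acot1, Acot2, Acot3, Vnn1 and Crat stand higher and Fabp2 and Bdh1 lower in α7HMZ livers at 10:30 and 13:30, apart from 1 α7HMZ liver for Fabp2.

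The last pair of genes bear on fuel choice and coenzyme A supply. Pdk4, the kinase that shuts pyruvate dehydrogenase and so spares glucose, was at 7.30, 9.36 and 9.84 CPM in fed and 28.9, 37.9 and 43.3 CPM in fasted WT livers (2.07 ± 0.39, adjusted p = 0.0023), and at 17.7, 3.24 and 6.82 CPM in fed and 84.9, 91.7 and 78.9 CPM in fasted α7HMZ livers (3.22 ± 0.40, adjusted p = 0.00022). The fed genotypes overlapped and the fasted ones did not (1.21 ± 0.36, adjusted p = 0.0381). The high fed α7HMZ value was that of the library rich in Rn45s, and without that library the fasting changes differed by 1.97 between genotypes (adjusted p = 0.0241), against 1.15 ± 0.54 (adjusted p = 0.34) with it.

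Vnn1, a pantetheinase that recycles the vitamin part of coenzyme A, was at 13.1, 15.8 and 10.8 CPM in fed and 138, 160 and 117 CPM in fasted WT livers (3.39 ± 0.24, adjusted p = 2.63e-06) and at 55.1, 48.1 and 54.6 CPM in fed and 278, 370 and 178 CPM in fasted α7HMZ livers (2.39 ± 0.23, adjusted p = 2.54e-05). At 13:30 it was at 24.3, 18.1 and 18.4 CPM in WT and 64.0, 57.0 and 54.3 CPM in α7HMZ livers, while the 20:30 livers held 59.1, 18.2 and 32.6 CPM in WT and 40.6, 55.8 and 36.4 CPM in α7HMZ. The genotypes lay apart at both daytime hours and overlapped in the evening, with differences of 2.00 ± 0.29, 1.53 ± 0.27 and 0.25 ± 0.27, and the variation with time passed the test (adjusted p = 0.034).

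Eci1, Eci2 and Vnn1 were the 3 of the 37 genes whose genotype difference varied among the fed times, where 4.99% of all genes were called. In each the excess in α7HMZ livers was largest at 10:30. This count was sensitive to single livers: it ranged from 1 to 8 when 1 fed liver was left out, and was 8 without the α7HMZ liver rich in Rn45s. The count over all genes moved too, from 665 of 13334 with every liver to 1834 of 13441 without that liver and to 107 of 13568 without WT replicate 2 at 10:30.

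From 13:30 to 20:30, into the feeding phase, fed WT livers raised 20 of the 37 genes: 3 of the 5 carnitine genes, 3 of the 7 dehydrogenase and electron transfer genes, 4 of the 5 spiral genes, all 4 double bond genes, 2 of the 5 peroxisomal genes, Acat1, Acot1, Acot2 and Vnn1. Acot1 went from 27.0, 30.7 and 46.3 CPM to 133, 78.4 and 105 CPM (1.62 ± 0.23, adjusted p = 0.00022) and Acot2 from 8.33, 9.83 and 11.9 CPM to 38.1, 24.6 and 29.4 CPM (1.64 ± 0.20, adjusted p = 9.06e-05). Those were the only 2 of the 20 with a log2FC above 1, and the other 18 rose by 0.32 (Decr2) to 0.99 (Crat). With the GC content and full quantile offsets 11 rose and 1, Crot, fell (-0.68, adjusted p = 0.0236), while 1327 of all 13334 genes rose and 1259 fell. In α7HMZ livers Acot1 rose from 84.2, 69.0 and 68.2 CPM to 140, 139 and 97.3 CPM (0.77 ± 0.22, adjusted p = 0.0472), Acot2 by 0.70 ± 0.19 and Cpt2 by 0.54 ± 0.10.

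The median evening change over the 37 genes was 0.395 in WT and 0.0953 in α7HMZ livers (0.185 and -0.0106 with the offsets), but the difference between the genotypes' evening changes passed the test for 0 of the 37, where 0.112% of all genes were called in each direction. In edgeR 13 of the 37 had an unadjusted p below 0.05, all with the more negative change in α7HMZ livers. The share of all genes at that unadjusted threshold was not counted. DESeq2 called 1 of the 37, Eci2 (adjusted p = 0.0138), and 219 of all 13334 genes. The difference was below 0 for 31 of the 37 genes, with a median of -0.334 against 0.00386 over all genes (-0.213 with the offsets). The largest single values were -1.28 ± 0.38 for Vnn1 (adjusted p = 0.144) and -0.95 ± 0.28 for Acot2 (adjusted p = 0.14). The bile duct markers Krt19, Krt7, Epcam, Sox9, Spp1 and Cldn7 summed to 41.6, 70.7 and 44.5 CPM in WT replicates 1 to 3 at 20:30. In α7HMZ replicates 1 to 3 of that hour they summed to 92, 71.6 and 80.9 CPM. The Kupffer cell marker sum was the lowest of all libraries in that α7HMZ replicate 2, at 60.2 CPM. Among the livers at 20:30, WT replicate 2 and α7HMZ replicates 1 and 3 held the most RNA of the bile duct marker Krt19, at 18.3, 14.3 and 12.5 CPM. Without them and the library rich in Rn45s, 22 genes rose in WT livers. This leaves 1 α7HMZ liver at 20:30, assumed to vary like the other groups, and with it 2 genes rose in α7HMZ livers and the 20:30 genotype split was 0 higher and 3 lower in place of 2 and 8.

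**Figure D5:**
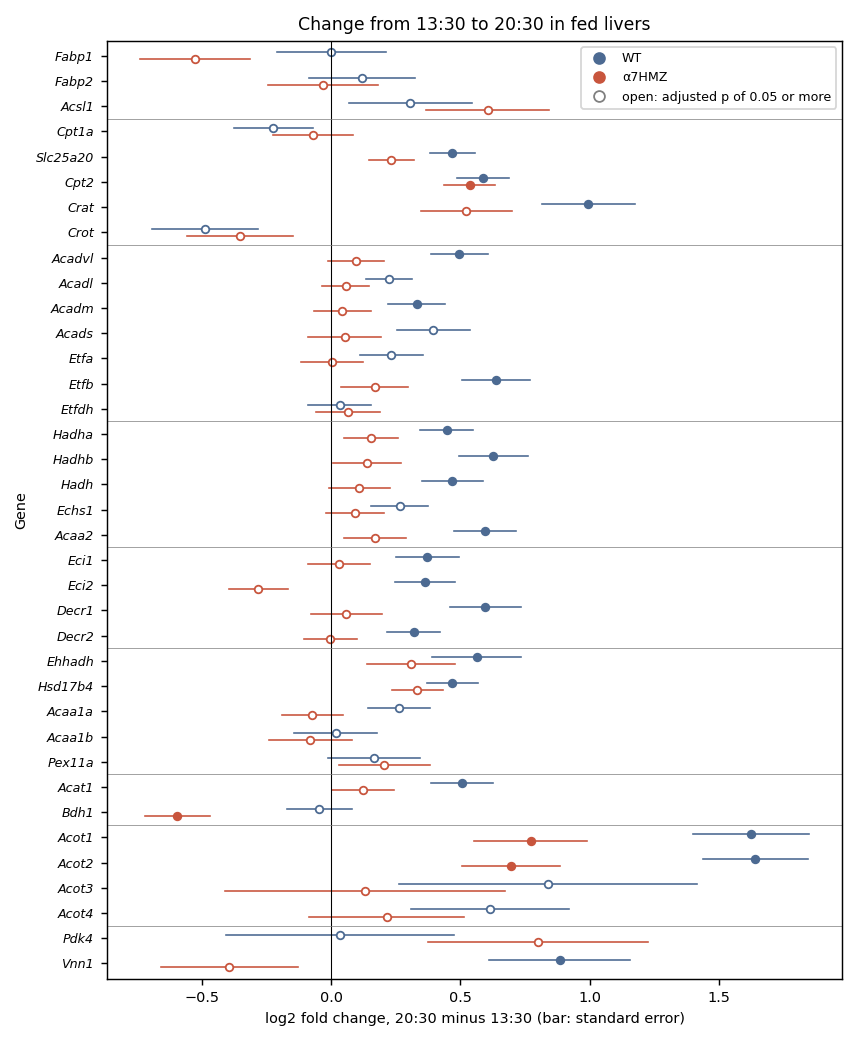
Log2 fold change of fed livers at 20:30 minus 13:30 for each of the 37 genes (rows, grouped by role) in WT (blue) and α7HMZ (red) livers, n = 3 per group and both times on flow cell 377. Bars are standard errors and open points have an adjusted p of 0.05 or more, with 20 filled WT points and 4 filled α7HMZ points.

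The difference between the genotypes' fasting changes passed the test for 0 of the 37 genes. Of all genes, 0.16% were called with a more positive and 0.0916% with a more negative change in α7HMZ livers. In edgeR 7 had an unadjusted p below 0.05: Ehhadh with the larger change in α7HMZ livers, and Fabp2, Cpt1a, Eci1, Eci2, Acot3 and Vnn1 with the smaller one. The share of all genes at that unadjusted threshold was not counted. DESeq2 called Ehhadh alone of the 37, and 214 of all 13103 genes. Eci1, Eci2, Acot3 and Vnn1 were also higher in fed α7HMZ livers at 10:30, and both comparisons use those livers. Without the α7HMZ libraries with the most Rn45s (fed) and Kupffer cell markers (fasted), 2 genes were called, Ehhadh (1.75, adjusted p = 0.0355) and Pdk4 (2.03, adjusted p = 0.0213), and the fasted genotype split was 13 higher and 3 lower. Of all 13249 genes in that fit, 85 were called for the difference between fasting changes. In its fasted genotype comparison 696 were higher and 955 lower. In fasted α7HMZ livers replicate 2 had the highest level of Ehhadh, Pex11a, Crat, Vnn1 and Acot1 to Acot4, and without it 21 genes rose with the fast in place of 26.

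The wider pathway and its regulators were read from lists of 53 and 33 further genes. All values for these lists are from edgeR with TMM factors, and the alternatives were not read for them. Of 51 tested genes of transport, activation and oxidation, 17 rose and 11 fell with the fast in WT livers (all genes, 12% and 10.6%) and 15 rose and 5 fell in α7HMZ livers (all genes, 6.68% and 5.9%). Between fed genotypes 13 were higher and 15 lower in α7HMZ livers (all genes, 13.3% and 13.2%). Abcd2, a peroxisomal importer of very long chains, was at 11.7 to 17.2 CPM in WT and 46.4 to 65.5 CPM in α7HMZ livers fed at 10:30 (fed average 2.19 ± 0.11, adjusted p = 2.58e-11). Slc27a1, a fatty acid transporter best known from muscle and fat, was higher (1.55 ± 0.09, adjusted p = 2.01e-10), while its liver relatives Slc27a5 (-1.09 ± 0.06, adjusted p = 8.59e-11) and Slc27a2 (-0.86 ± 0.08, adjusted p = 8.18e-08) were lower. Acsl5, another acyl-CoA synthetase, was lower by -0.79 ± 0.06. In fasted livers 6 were higher and 11 lower (all genes, 6.9% and 8.65%). Slc27a1 was at 68.7 to 87.6 CPM in α7HMZ against 17.4 to 19.3 CPM in WT (2.11 ± 0.12, adjusted p = 7.84e-08). With fasting in WT livers the carnitine importer Slc22a5 rose by 2.46 ± 0.23 (adjusted p = 1.37e-05), Slc27a1 by 1.92 ± 0.13 and Slc27a2 by 1.18 ± 0.13. Fasted Slc27a5 and Slc27a2 stayed lower in α7HMZ livers (-1.18 ± 0.13 and -0.73 ± 0.13), and Abcd2 stayed higher (1.66 ± 0.17).

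Of the regulators and known PPARα targets, 15 of 31 tested rose and 0 fell with the fast in WT livers, and 16 rose and 0 fell in α7HMZ livers, beside the same shares of all genes (12% and 10.6%, and 6.68% and 5.9%). At an unadjusted p below 0.05 edgeR gave 0 lower in either genotype, and DESeq2 counts were not made for this list. Between genotypes 2 of 32 were higher and 9 lower in fed α7HMZ livers, and 4 of 31 were higher and 4 lower in fasted ones (all genes, 13.3% and 13.2%, and 6.9% and 8.65%). Cyp4a14, a fatty acid ω-hydroxylase, was at 121, 174 and 153 CPM in fed and 12500, 9210 and 8140 CPM in fasted WT livers (6.07 ± 0.36, adjusted p = 6.69e-07). In α7HMZ livers it was at 1270, 661 and 751 CPM fed and 11400, 13300 and 6930 CPM fasted, so the fasted genotypes overlapped while the fed ones did not (fed average 2.26 ± 0.23, adjusted p = 3.71e-07). Its relatives Cyp4a10, Cyp4a31 and Cyp4a32 rose in WT livers by 4.66 ± 0.23, 4.03 ± 0.23 and 3.21 ± 0.26. Between genotypes Cyp4a10 went the other way in fed livers (-1.0 ± 0.20, adjusted p = 0.000918) and in fasted ones (-0.94 ± 0.20, adjusted p = 0.00699). Ppara was lower in fed α7HMZ livers (-0.42 ± 0.11, adjusted p = 0.00759), at 389 to 412 CPM in WT and 219 to 305 CPM in α7HMZ livers at 13:30. Sirt3, a mitochondrial deacetylase, and Nr1h3, which encodes LXRα, were lower too, by -0.38 ± 0.07 and -0.48 ± 0.06. Whether these lower calls hold with the GC content and full quantile offsets was not tested. In fasted α7HMZ livers the lipid droplet gene Plin2 was higher (1.14 ± 0.22, adjusted p = 0.00407), Ucp2 was higher (1.72 ± 0.24, adjusted p = 0.000359) with its highest value, 72.1 CPM, in the liver with the most Kupffer cell marker RNA, and Cidec was lower (-2.31 ± 0.29, adjusted p = 0.00015).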

How the data were processed

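Libraries of poly(A) RNA, 1 per mouse liver (24 in all), were sequenced with an unstranded kit (75-base single reads). Per the submitters' processing notes and the study's methods, the authors aligned reads to mm10 with TopHat2 2.1.1, keeping 1 unique alignment per read, and counted them per gene with HTSeq 0.6.1. The deposited table of raw counts per gene symbol was used as it stands. The deposited FPKM values were not used. A kit without strand cannot separate a gene from an antisense partner, and reads that align equally well to near-identical copies may have been dropped or placed on 1 of them.

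Counts were tested with edgeR 4.0.16 (filterByExpr, TMM factors, quasi-likelihood F-test, Benjamini-Hochberg adjustment over all genes tested) in R 4.3.3, in a model of the 18 fed libraries (13334 genes) and a model of the 12 libraries at 10:30 (13103 genes). SE was taken as the size of the log2 fold change over √F. Each library is from 1 mouse. DESeq2 1.42.0 was an alternative. The offsets for GC content (loess) and full quantile scaling were written after the description of EDASeq, which the authors used. Shared 75-base windows, positions and GC content came from GENCODE on GRCm38, promoter windows from RefSeq. Of 23411 symbols 21777 matched that annotation and 1248 an older symbol. The code was tested on simulated data.

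The 37 genes, the other lists and the comparisons were chosen with earlier results of these data known. Values per library were given, in the states compared, for the gene of each role with the smallest p in the fed average, WT fasting and fasted genotype comparisons, for genes called there with a change of 1 or more on the log2 scale, and for genes called in the tests of genotype by time or by fasting. Of each further list the 4 with the smallest p in those comparisons were named, and Ppara, outside that rule, was added with its values known. The values of 1 gene of these lists are not reported here. The difference between evening changes was added after the counts were seen. Alternatives were other scaling factors, filters, tools, models and single libraries left out.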

Additional observations from a re-analysis of the deposited data

Results flagged for a closer look

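Some genes answered the same contrast differently in the groups, by a test of the difference itself. Across the 3 fed times the genotype difference varied for Eci1 (adjusted p = 0.0378), Eci2 (adjusted p = 0.0131) and Vnn1 (adjusted p = 0.034), with the α7HMZ excess largest at 10:30. In the further lists it varied for Acsl3 (adjusted p = 0.0212), Mlycd (adjusted p = 0.0423), Abcd2 (adjusted p = 0.0234), Nr1h3 (adjusted p = 0.0411), Mgll (adjusted p = 0.0374) and Pnpla2 (adjusted p = 0.0197). Acsl3 was lower in α7HMZ livers at 10:30 alone (-1.17, adjusted p = 0.00112), and Nr1h3 was lowest against WT at 20:30 (-0.87).

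The evening change of Abcd2 differed between genotypes (adjusted p = 0.0464): it fell by 2.16 on the log2 scale in WT livers and by 0.83 in α7HMZ livers. The fasting change differed for Cidec (adjusted p = 0.0255), which rose by 3.32 in WT livers and changed by 0.42 in α7HMZ livers, and for Cyp4a14 (adjusted p = 0.0295), which rose by 6.07 in WT and 3.55 in α7HMZ livers. Fasted α7HMZ livers ran on another flow cell than the other groups at 10:30, so for Cidec and Cyp4a14 the flow cell and the group cannot be told apart. Groups of 3 were too small for a check of single outlying livers.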

How the results depend on the processing

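Of the counts of the 37 genes recomputed under the alternatives, 327 stayed within 1.5 times the reported count and 95 did not. For single called genes, 2543 values kept direction and call, 366 kept the direction only and 3 turned, all with GC content and full quantile offsets: Hadh (0.0199) and Acaa2 (0.0471) in the fed average and Etfb at 20:30 (0.0173). With these offsets the genes higher and lower in α7HMZ livers were 24 and 2 in the fed average, 18 and 1 at 13:30 and 21 and 1 after the fast, with 1 lower at 10:30 and 2 lower at 20:30. From 13:30 to 20:30 the offsets gave 11 higher and 1 lower in WT and 3 lower in α7HMZ livers. Over all 13334 genes they gave 1327 higher and 1259 lower in WT and 350 lower in α7HMZ livers. The cause was not tested.

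At 13:30, 11 genes were higher with upper quartile factors or with only the groups compared, 8 with DESeq2 or a filter of 50 counts in 3 libraries, and 9 after dropping the 4 fed libraries highest in Rn45s, Krt19 or Ctrb1. That last setting, chosen after seeing the data, gave 0 higher and 3 lower at 20:30 and 0 lower in the α7HMZ evening change, each with 1 α7HMZ liver left at 20:30, assumed to vary like the other groups. DESeq2 gave 1 higher at 20:30, 7 for genotype by time, 1 for genotype by evening and 1 for genotype by fasting. Over all 13334 genes it gave 1168 higher at 20:30, 1618 for genotype by time and 219 for genotype by evening. For genotype by fasting it gave 214 of 13103. With only the groups compared, 1 was lower at 10:30, 2 were lower at 20:30 and 0 fell with the α7HMZ fast. All 24 libraries in 1 model gave 1 higher in the α7HMZ evening change and 1 for genotype by fasting, and leaving out the α7HMZ libraries with the most Rn45s or Kupffer cell markers, also chosen after seeing the data, gave 2 for genotype by fasting. Against fed α7HMZ livers at 13:30, 0 fell with the fast. A required absolute log2 fold change of 1 left, higher and lower, 3 and 1 in the fed average, 4 and 0 at 10:30, 1 lower at 13:30, 1 and 1 at 20:30, 17 and 0 with the WT fast, 13 and 0 with the α7HMZ fast, 6 and 1 in fasted genotypes, 2 higher in the WT evening change and 0 and 0 in the α7HMZ one. Of all 13334 genes it left 246 and 315 in the fed average and 260 and 374 at 10:30. At 13:30 it left 311 lower, and at 20:30 338 and 329. It left 219 higher in the WT evening change and 172 and 71 in the α7HMZ one. Of all 13103 genes it left 442 and 462 with the WT fast and 330 and 267 with the α7HMZ fast. In fasted genotypes it left 420 and 382.

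The replicate numbers did not pair the samples: over 84 same-numbered pairs the correlation of deviations had a median of -0.00363, and 7 were over 0.1. With the replicate block 1 gene fell in the WT evening change, and no other count moved by over 1.5 times.

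Leaving out single libraries gave, higher and lower, 11 to 14 and 5 to 8 in the fed average, 10 to 12 and 1 to 4 at 10:30, 4 to 6 and 1 to 2 at 13:30, 0 to 6 and 3 to 11 at 20:30, 14 to 20 and 0 to 2 in the WT evening change, 1 to 4 and 1 to 2 in the α7HMZ one, 26 to 28 and 0 to 0 with the WT fast, 21 to 26 and 1 to 1 with the α7HMZ fast, and 6 to 12 and 2 to 3 in fasted genotypes. Genotype by time ranged from 1 to 8, by evening from 0 to 1 and by fasting from 0 to 1. In fasted livers 6 genes were higher without WT replicate 1, WT replicate 2 or α7HMZ replicate 2, and 7 without WT replicate 3. At 20:30, 6 were higher without WT replicate 1, 0 without WT replicate 2, WT replicate 3 or α7HMZ replicate 1, and 1 without either of the other α7HMZ livers. There 3 were lower without WT replicate 3 or α7HMZ replicate 3, and 4 without α7HMZ replicate 1. Genotype by time gave 8 without α7HMZ replicate 1 at 10:30, 6 without α7HMZ replicate 2 and 5 without WT replicate 2 at 20:30, and 1 without any single WT liver at 10:30. The evening rise in α7HMZ livers was left with 1 gene without any single α7HMZ liver at 13:30 or without replicate 1 or 2 at 20:30. Lowly counted genes such as Pdk4 and fed Acot3 had the widest errors.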
